A study of Mus musculus with 6 samples.

Results

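The cells described here are plasmacytoid dendritic cells of melanoma tumours in sedentary and exercised mice, taken from single-cell RNA data as barcodes with Siglech UMIs. A UMI is a tag that marks 1 captured RNA molecule. A barcode entered the set with at least 2 UMIs of Siglech, 0 UMIs of Cd3d, Cd3e and Cd3g together and at most 1 UMI of C1qa, C1qb and C1qc together. The set held 115 of the 52390 barcodes that passed the limits on quality (0.220%), 73 of them in sedentary and 42 in exercise libraries. Siglech encodes a sialic-acid-binding receptor of mouse plasmacytoid dendritic cells, the Cd3 genes mark T cells and the C1q genes mark tissue macrophages. The cells were thus chosen by their measured UMIs of these genes, so the levels of these genes are a description and were not tested.

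Plasmacytoid dendritic cells are immune cells that sense viral and self nucleic acids through the endosomal receptors Tlr7 and Tlr9 and can release large amounts of type I interferon. Their identity depends on the transcription factor Tcf4 (E2-2), which the inhibitor Id2 opposes in conventional dendritic cells, and they share part of a lymphoid gene programme with B cells. In tumours they are often described as sparse and poor in interferon.

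Single-cell RNA was measured in 6 libraries, each from a whole dissociated tumour of YUMMER1.7 cells, a mouse melanoma line with mutations added by ultraviolet light. All mice were male C57Bl/6 of 6 to 8 weeks, and each had received 600000 tumour cells under the skin. The sedentary group (libraries 1, 2 and 3) did not run, while the exercise group (libraries 5, 6 and 8) ran daily for 45 minutes over 14 days at a speed of 12 metres per minute, starting once tumours had formed. The tumours came from 1 injected line and were digested for 15 minutes at 37 degrees without any sort, and the labels do not say whether a library was 1 animal. The p-values therefore measure only the spread between these libraries.

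The libraries held 8115 to 10913 barcodes and 97426009 to 131778565 UMIs each, and 7201 to 10076 barcodes per library passed. Passing barcodes outside the set had a median of 10316 UMIs and 2901 genes. The Siglech-gated cells had a lower median of 3604 UMIs and 1546 genes. This was close to the median of 3677 UMIs in other barcodes with a UMI of Ptprc, the pan-leukocyte gene. The other immune populations compared below had medians from 1434 UMIs (B-marker cells) to 7903 UMIs (Xcr1 Clec9a cells). The gated cells were thus low against all passing barcodes, but not against immune barcodes in general. Of 384 barcode sequences found in more than 1 library, 2 belonged to a gated cell in 1 library and to another kind of barcode elsewhere, and 0 were gated in both.

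The other markers named for this cell type were present in nearly every gated cell. Ccr9, a chemokine receptor that guides cells to the gut, had a UMI in 113 of 115 cells, Bst2, the antigen PDCA-1, in 115 and Tcf4 in 114, and 113 cells had all 3. The share with a Ccr9 UMI was 98.3%, against 0.111% of barcodes with C1q and 9.62% of barcodes with Xcr1 or Clec9a, which had median depths of 5686.5 and 7903 UMIs. Bst2 and Tcf4 are expressed more widely. In the same 2 populations 76.7% and 79.8% had a Bst2 UMI, and 44.3% and 25.0% a Tcf4 UMI. Of 14 core markers other than Siglech the gated cells had a median of 10, with a range of 1 to 14. The cell with only 1 was in sedentary 3 and had 695 UMIs, the fewest of all.

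At the edge of the gate the 13 cells with 2 Siglech UMIs had a median of 9 core markers, and 12 of them had Ccr9. The 22 barcodes with 1 Siglech UMI, just outside, had a median of 4 core markers, and 8 had Ccr9. The barcodes outside ranged from 0 to 11 markers and overlapped the cells inside. A further 4 barcodes with 2 or more Siglech UMIs were left out for Cd3 or C1q UMIs.

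**Figure D1:**
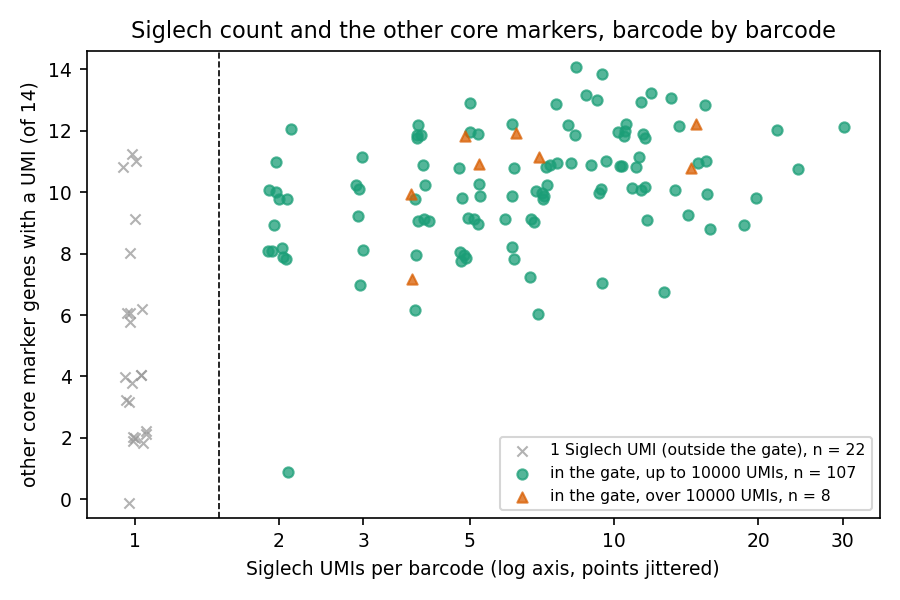
Number of the other 14 core plasmacytoid markers with a UMI (vertical axis) against Siglech UMIs per barcode (horizontal axis, logarithmic, points jittered), with 1 point per barcode and a dashed line at the gate. Cells inside the gate hold a median of 10 core markers, and the 22 barcodes outside it a median of 4, with 1 low cell inside the gate.

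The promoters of 3 genes that led the set show the DNA in front of these genes. They are shown because Siglech, Klk1 and Ccr9 were the leading genes above 1000 CPM (UMIs of a gene per 1000000 UMIs) found with either of 2 E-box forms, CAGCTG and CACCTG, in this window. Cox6a2 and Ly6d, also leading genes above 1000 CPM, had no promoter sequence to search. E-boxes, of the general form CANNTG, are short sites bound by helix-loop-helix factors such as Tcf4. The sequences are the 250 bases before the gene start in RefSeq (GRCm38.p6, the build of the files), written 5′ to 3′ on the gene's strand, with matches of these 2 forms in capitals. Other E-box forms were not searched and stand in lower case where present. The Siglech window is chr7:55767934-55768183, plus strand. The Klk1 window is chr7:44225110-44225359, plus strand. The Ccr9 window is chr9:123766961-123767210, plus strand.
Siglech: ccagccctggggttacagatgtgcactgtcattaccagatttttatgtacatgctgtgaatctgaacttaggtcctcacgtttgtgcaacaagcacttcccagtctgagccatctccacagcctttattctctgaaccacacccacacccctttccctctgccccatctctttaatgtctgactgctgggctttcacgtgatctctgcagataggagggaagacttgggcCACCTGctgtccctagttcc
Klk1: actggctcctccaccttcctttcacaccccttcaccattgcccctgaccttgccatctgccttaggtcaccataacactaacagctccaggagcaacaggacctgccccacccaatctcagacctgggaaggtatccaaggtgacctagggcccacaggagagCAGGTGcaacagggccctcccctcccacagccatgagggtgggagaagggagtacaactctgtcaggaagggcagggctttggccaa
Ccr9: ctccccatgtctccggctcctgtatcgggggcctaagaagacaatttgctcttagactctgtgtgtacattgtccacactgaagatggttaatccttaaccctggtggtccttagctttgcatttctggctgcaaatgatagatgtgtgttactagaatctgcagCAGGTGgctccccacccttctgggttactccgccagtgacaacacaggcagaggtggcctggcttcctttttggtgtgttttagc
The motifs searched were CAGCTG and CACCTG on both strands (CAGGTG is the second read on the other strand), and matches of these cannot overlap. The first base of the match in capitals lay 20 bases before the start of Siglech, 87 before that of Klk1 and 85 before that of Ccr9. Of the 20 leading genes 14 had a promoter in the table, and 7 of these (50%) held either motif. Over all 27025 promoters of the table the share was 27.4%, and over the 1004 promoters of genes tested in the gated cells it was 21.2%. A match is a run of letters, not a measured binding site.

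Siglech, Dntt, Klk1 and Ccr9 were among the genes that stood out most from other immune barcodes. The 20 genes with the highest ratio of pooled level to that of all other barcodes with a Ptprc UMI (Ptprc is the pan-leukocyte gene CD45) were Olfr164, Siglech, Dntt, Klk1, Ccr9, Klk1b27, Gm21762, Chdh, Cox6a2, Ptprf, Paqr5, Sh3bgr, Ly6d, Atp2a1, Foxr1, Upb1, Cacna1e, Iglc3, AC140186.1 and Spib. Siglech set the gate, so its place among the 20 genes and its share of UMIs are a description. The gated cells, 0.220% of the barcodes, held 95.1% of all 934 Siglech UMIs in the 6 libraries. They also held 91.3% of the 126 UMIs of Dntt, the gene of the terminal transferase that adds bases to antigen receptor joints. Klk1, a kallikrein protease gene, had 90.9% of its 761 UMIs there, and Klk1b27, on the same chromosome, 85.5% of 165. Klk1 and Klk1b27 are close copies, and reads between such copies can be shared. Ccr9 had 80.9% of its 1003 UMIs in the gated cells, Ly6d 72.2% of 1134 and Cox6a2, a heart and muscle subunit of cytochrome oxidase, 60.7% of 1372. Tcf4 and Bst2, by contrast, had 0.282% and 0.466% of theirs.

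The level of these genes was given per library as CPM of the summed UMIs of the gated cells. Siglech stood at 1487, 2071 and 755 CPM in sedentary 1, 2 and 3 and at 989.7, 1895 and 2128 CPM in exercise 5, 6 and 8, so sedentary 3 and exercise 5 were lowest. Without the 8 cells over 10000 UMIs described below it stood at 2346, 2071 and 1507 CPM and at 2278, 1895 and 2128 CPM, so exercise 5 was no longer low. Cox6a2 stood at 1387, 1664 and 879.9 CPM in sedentary 1, 2 and 3 and at 1079, 1028 and 2420.3 CPM in exercise 5, 6 and 8. Klk1 ranged more widely, at 907, 1316 and 1599.7 CPM and at 170.4, 1874 and 2287 CPM, with exercise 5 far below the other 5 libraries. Without those 8 cells Klk1 in exercise 5 was still lowest at 427 CPM, against 1316 to 3291 CPM elsewhere. Dntt stood at 230.5, 213 and 169 CPM and at 114, 20.2 and 213 CPM, with exercise 6 lowest at 1 UMI.

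**Figure D2:**
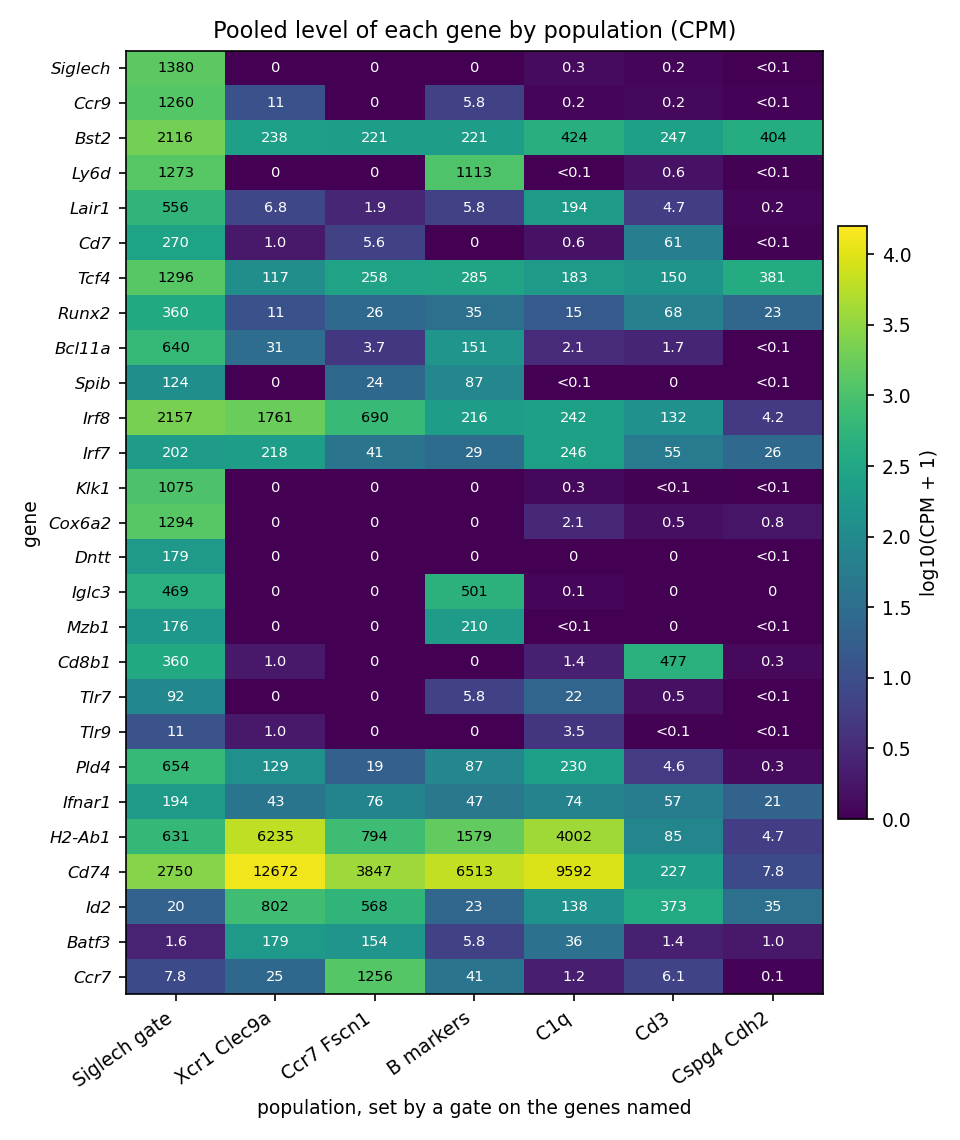
Pooled level of 27 genes (rows, CPM printed in each cell, colour on a log10 scale) in the Siglech-gated cells and 6 other gated populations (columns). Klk1 and Dntt are near 0 outside the first column, Ly6d, Iglc3 and Mzb1 are shared with B-marker cells, and Cd8b1 is shared with Cd3 barcodes. Siglech is near 0 outside the first column too, but the gates of the Xcr1 Clec9a, Ccr7 Fscn1 and B-marker cells limit it.

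A few gated cells carried far more RNA than the rest. Of the 115 cells 8 had over 10000 UMIs (the lowest 12524, against 9295 for the highest of the others), and they held 39.2% of all UMIs of the set. They lay in sedentary 1 (4 cells), sedentary 3 (2) and exercise 5 (2), where they held 43.3%, 55.2% and 60.1% of the set's UMIs, and in 0 cells of the other 3 libraries. In these 8 cells the 15 core markers summed to 2673 CPM, against 16999 CPM in the other 107. The fibroblast list summed to 3125 and 197 CPM, with all 8 cells against 49 of 107 having at least 1 of its markers. The tumour-like list summed to 297.0 and 15.3 CPM, and the cell cycle list to 2507 and 294 CPM. Scrublet, a doublet caller, called 2 of the 8 and 0 of the 107, and 861 of all 52390 barcodes (0.946% to 2.42% per library). Whether the 8 are doublets was not tested further, and each count below was repeated without them. Only gated cells were left out in these repeats, and large barcodes of the comparison populations stayed in.

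Markers of other cell types were present to very different degrees. Of 15 marker lists of other cell types, 77 of the 115 cells had 3 or more markers of at least 1 list. The inflammatory monocyte list was reached by 63 cells, and summed to 3377 to 6328 CPM in sedentary and 3342 to 6489.7 CPM in exercise libraries, but its Ly6c2 and Plac8 are also on the plasmacytoid lists. Its Fn1 had 425 UMIs in 62 cells, while Chil3 and F13a1 were at 0. With the 3 genes that such lists share with the plasmacytoid lists left out (Ly6c2, Plac8 and Irf8), 28 cells had 3 or more markers of at least 1 list. Of the lists behind this count, the type 2 conventional dendritic list was reached by 16 cells, the fibroblast list by 7, the tumour-like list by 4 and the inflammatory monocyte list by 0. The type 2 conventional dendritic list summed to 364 to 542 and 211 to 806 CPM. It was led by Clec10a, a lectin gene, with 129 UMIs in 61 cells, and Clec4a4 was at 0. The part of these markers in the results below was not tested. B cell markers summed to 0 to 19.4 CPM in sedentary and 0 to 16.2 CPM in exercise libraries, with Ms4a1, Cd79a, Pax5 and Ebf1 at 0 UMIs. T cell markers summed to 8.89 to 38.7 and 8.11 to 79.8 CPM. NK cell markers reached 887 CPM in exercise 6, where a single cell carried all 11 Gzma and 9 Prf1 UMIs of the set. Macrophage and monocyte markers summed to 222 to 561 and 227 to 403 CPM. Fibroblast markers ranged from 194 to 2279 CPM in sedentary and from 101 to 1006 CPM in exercise libraries, a range that shrank to 190.1 to 278 and 101 to 372 CPM without the 8 large cells.

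The set made up a larger share of barcodes in sedentary 1 than elsewhere. The share of passing barcodes was 0.530% in sedentary 1 (42 of 7926, 95% exact binomial interval 0.382 to 0.716), 0.167% in sedentary 2 (12 of 7201, 0.0861 to 0.291) and 0.1997% in sedentary 3 (19 of 9516, 0.1203 to 0.312). It was 0.196% in exercise 5 (16 of 8177, 0.112 to 0.318), 0.137% in exercise 6 (13 of 9494, 0.0729 to 0.234) and 0.129% in exercise 8 (13 of 10076, 0.0687 to 0.221). The groups overlapped, since exercise 5 lay above sedentary 2. The mean was 0.299 ± 0.201% (SD, n = 3) in sedentary and 0.154 ± 0.0364% (n = 3) in exercise libraries, a difference of -0.145 points (exact two-sided permutation p = 0.2, with 0.1 the smallest possible). Without sedentary 1 the difference was -0.0293 points. As a share of barcodes with a Ptprc UMI the means were 1.06 ± 0.676% and 0.477 ± 0.0468% (exact two-sided permutation p = 0.4). Intervals cover counting error only, and fewer cells and fewer barcodes recovered per cell cannot be told apart.

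**Figure D3:**
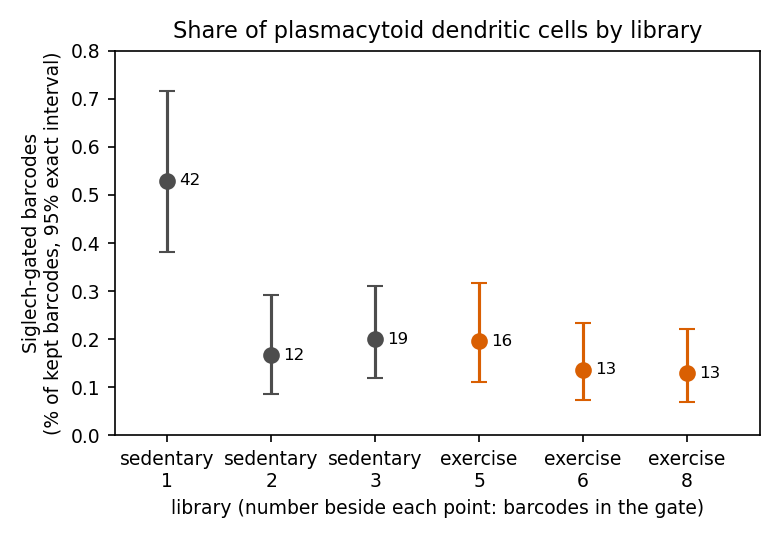
Share of Siglech-gated cells among the passing barcodes of each library (vertical axis, percent, bars for the 95% exact binomial interval, number of gated cells beside each point). Sedentary 1 lies at 0.530%, and the other 5 libraries lie between 0.129% and 0.1997% with overlapping intervals.

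The gated cells were next compared with the 104 barcodes carrying at least 2 UMIs of Xcr1 and Clec9a, genes of the cross-presenting conventional dendritic cell. UMIs were summed per library and population over the 5 libraries with at least 5 cells of each (sedentary 2 was left out), and the library was kept as a block. Genes of either gate were left out of the test. With edgeR, 282 of 1943 genes tested were higher (14.5%) and 254 lower (13.1%) in the gated cells at an adjusted p under 0.05. The median log2 fold change of all tested genes was -0.01. This comparison and the 2 that follow share the same gated cells, so they are not independent.

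Regulators differed in opposite directions. Of 10 plasmacytoid transcription factor genes 6 could be tested, of which 4 were higher, with a median log2 fold change of 3.0 over the 6. Tcf4, the master regulator, stood at 1420.4, 1146, 1014, 1371 and 1436 CPM in the gated cells of sedentary 1 and 3 and exercise 5, 6 and 8. In the Xcr1 Clec9a cells of the same libraries it stood at 117, 219, 49.7, 113 and 195 CPM, below every gated value (log2 fold change 3.29, SE 0.25, adjusted p = 1e-07, edgeR). Bcl11a, a zinc finger regulator of lymphoid and plasmacytoid fate, averaged 636 ± 277 and 29.4 ± 12.2 CPM (4.32, SE 0.29, adjusted p = 1.05e-08). Runx2, which controls exit from the bone marrow, averaged 379 ± 119 and 13.1 ± 9.13 CPM (4.98, SE 0.42), and Zeb2, a repressor of Id2, 306 ± 87.3 and 43.6 ± 10.4 CPM (2.71, SE 0.28).

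Irf8 and Irf7 did not pass in this comparison. Irf8, which all dendritic lineages use, stood at 1458 to 3458 CPM and at 1506 to 2122 CPM (0.25, SE 0.17, adjusted p = 0.295). Irf7, which drives interferon genes after sensing, had a value of -0.14 (SE 0.26, adjusted p = 0.742). Without the 8 large cells Irf8 passed at 0.86 (adjusted p = 1.99e-08), and Irf7 did not at 0.40 (adjusted p = 0.121). Both conventional dendritic regulators tested, of 7 listed, were lower. Id2 stood at 26.03, 8.89, 0, 60.5 and 0 CPM in the gated cells and at 933, 778, 818, 796 and 607 CPM in the Xcr1 Clec9a cells (-5.53, SE 0.39, adjusted p = 4.64e-08). Batf3, which the cross-presenting cells need, had 1 UMI in the gated cells and 184 in the others (-6.29, SE 0.64). Batf3 thus reached the test through the Xcr1 Clec9a cells alone.

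**Figure D4:**
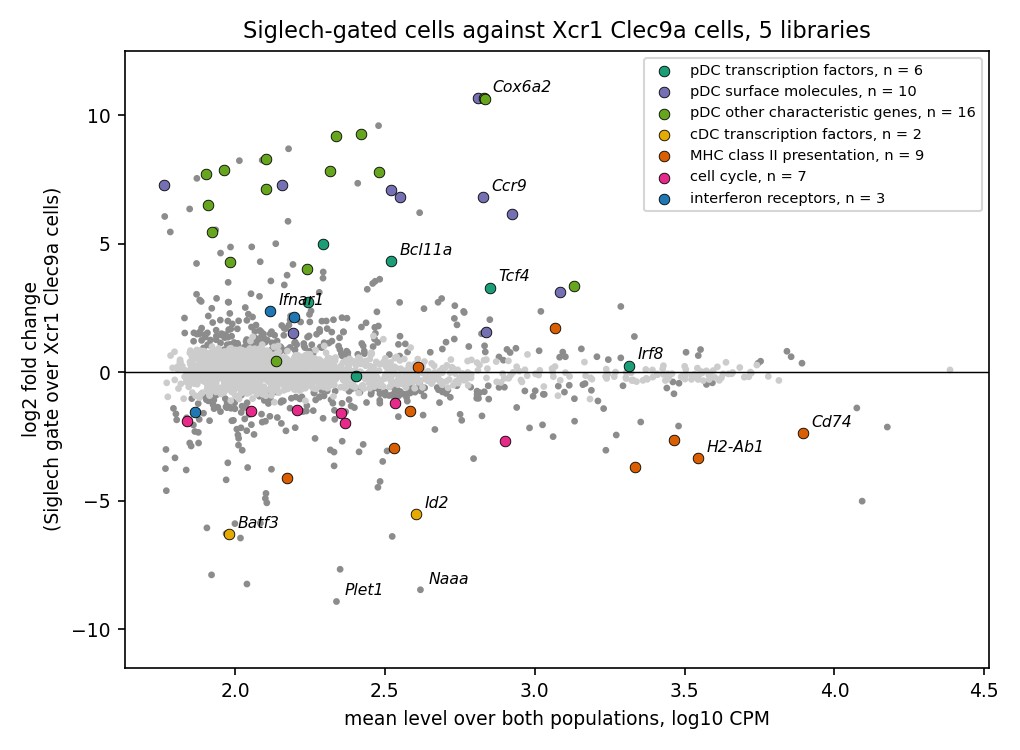
Log2 fold change of the Siglech-gated cells over the Xcr1 Clec9a cells (vertical axis) against the mean level of a gene in both populations (horizontal axis, log10 CPM), 1 point per tested gene, dark grey for genes that passed and coloured for 7 gene lists. Plasmacytoid genes lie above 0 except Irf7 at -0.14, with Irf8 at 0.25, and most class II presentation and cell cycle genes lie below.

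Of 15 surface molecules and receptors of the plasmacytoid list 10 were tested and 10 were higher, with a median log2 fold change of 6.804, or 6.47 with genes absent from the other population set at their bound. Of these, 3 had at most 3 UMIs in the Xcr1 Clec9a cells and reached the test through the gated cells alone, so the count is a description. Ccr9 stood at 665 to 2367 CPM and at 0 to 36.1 CPM (6.805, SE 0.34, adjusted p = 9.27e-10). Bst2 stood at 1419.7 to 2963 and 164 to 312 CPM (3.13, SE 0.17). Lair1, an inhibitory collagen receptor, averaged 659 ± 327 and 3.03 ± 2.99 CPM (7.07, SE 0.36), and Cd7 285 ± 132 and 0.764 ± 1.71 CPM (7.27, SE 0.55). Every one of the 5 libraries had these genes higher in the gated cells. Il7r, the interleukin-7 receptor of lymphoid cells, was also higher, with 254 against 2 UMIs (7.35, SE 0.43, adjusted p = 2.27e-09). Il7r thus reached the test through the gated cells alone, so its difference is a description. Against the Ccr7 Fscn1 cells described below Il7r did not pass, with 254 against 130 UMIs (0.83, SE 0.32, adjusted p = 0.069, edgeR). Without the large gated cells it passed there (1.46, SE 0.27, adjusted p = 0.0002, edgeR).

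Among the genes named for the largest difference, several had no UMI in the Xcr1 Clec9a cells. Against a floor of 3 UMIs over those libraries, Cox6a2 (747 UMIs in the gated cells) was at least 423-fold higher, Ly6d at least 404-fold and Klk1 at least 353-fold. Slpi, a secreted protease inhibitor, was at least 173-fold higher with 305 UMIs and stood at 368, 453, 754, 665 and 771 CPM, so all 5 libraries contributed. Iglc3 and Iglc2, constant segments of the lambda light chain that are near copies of each other, were at least 147-fold and 101-fold higher, Atp1b1, a sodium pump subunit, 131-fold and Mctp2 73.0-fold. In all, 15 of 16 other characteristic genes tested were higher (median 7.74, or 6.35 with bounds), of which 12 had at most 3 UMIs in the Xcr1 Clec9a cells and could enter the test only by being high in the gated cells. Gpr171 did not pass (0.43, adjusted p = 0.42), but did without the 8 large cells (1.11, adjusted p = 0.000497).

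Genes lower in the gated cells included most tested genes of class II presentation. Plet1 and Itgae, the integrin chain CD103, had 0 UMIs in the gated cells against 400 and 201, so they were at least 78.5-fold and 39.4-fold lower, and Bcl2a1a, which has close paralogs, at least 33.6-fold. Naaa, a lipid amidase gene, had 1 UMI against 844 (-8.46, SE 0.40). Ifi205, Cxcl16 and Plbd1 had 1, 1 and 4 UMIs against 462, 172 and 667 (-7.67, -6.45 and -6.39). Plet1, Itgae, Bcl2a1a, Naaa, Ifi205, Cxcl16 and Plbd1 thus reached the test through the Xcr1 Clec9a cells alone. Their differences are a description. Of 12 genes of class II presentation 9 were tested, 7 were lower and 1 higher, with a median of -2.63. H2-Ab1 stood at 515 to 984 CPM in the gated cells and at 4896 to 7994 CPM in the Xcr1 Clec9a cells (-3.33, SE 0.14, adjusted p = 1.92e-10). Cd74, the invariant chain, stood at 2085 to 4016 and 11092 to 15533 CPM (-2.36, SE 0.13). Ciita, the master switch of class II genes, had 9 UMIs against 294 (-4.11, SE 0.35). Ctsl, an endosomal protease gene, was higher (1.71, SE 0.23). Ctss, another protease of this list, did not pass (0.21), but did without the 8 large cells (0.86, adjusted p = 2.37e-05). So the gated cells carried class II transcripts in every library, at a lower level than the conventional cells.

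The machinery of nucleic acid sensing was split. Of 22 listed genes 4 reached the test, and 2 were higher and 2 lower. Pld4, an endosomal nuclease that trims ligands of the sensors, stood at 365 to 1197 and 65.8 to 181 CPM (2.47, SE 0.24, adjusted p = 5.9e-07). Unc93b1, which carries the sensors to endosomes, was higher at 0.82 (SE 0.25, adjusted p = 0.0222), a call lost in 6 of the other settings. Tlr3, the receptor for double-stranded RNA, had 6 UMIs against 187 (-4.19, SE 0.48), and Irf5 20 against 156 (-2.22, SE 0.38). The sensors Tlr7 and Tlr9 were too sparse to test. Without the 8 large cells 6 genes of the list reached the test and 4 were higher. Added were Tlr7 and Tmem173, the adaptor STING (1.62, adjusted p = 0.000279, edgeR). Tlr7 had no UMI in the Xcr1 Clec9a cells and entered through the gated cells alone, so its call is a description.

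Tlr7, which senses single-stranded RNA, had 59 UMIs in 46 of the 115 gated cells (40%) and 0 in the 104 Xcr1 Clec9a cells, which allows a share of up to 2.88%. By library it stood at 85.5, 116 and 53.3 CPM in sedentary and 64.9, 242 and 106 CPM in exercise samples. In C1q barcodes it had a UMI in 12.8% at a median of 5686.5 UMIs. Tlr9, the DNA sensor, had 7 UMIs in 7 cells (6.09%), against 2.36% of C1q barcodes, so it was hardly detectable at this depth.

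Interferon itself was not seen. The 20 type I and type III interferon genes listed had 0 UMIs in the 115 gated cells, which allows a share of cells with a UMI of up to 2.61%. In all 52390 barcodes these genes had 76 UMIs, in 51 barcodes. The receptor genes were more frequent. Ifnar1 stood at 197, 80.0, 187, 282 and 372 CPM in the gated cells and at 49.3, 10.96, 34.4, 61.8 and 36.1 CPM in the Xcr1 Clec9a cells of the same libraries (2.36, SE 0.30, adjusted p = 1.48e-05). Ifnar2 was also higher (2.16, SE 0.32), and Ifngr1, of the receptor for interferon gamma, was lower (-1.55, SE 0.38, adjusted p = 0.00556). Of 22 interferon-stimulated genes 5 were tested. Ifi27l2a was higher at 592 to 1409.6 against 85.2 to 441 CPM (2.32, SE 0.30), Ifitm3 was lower (-1.18, SE 0.26), and the others, Isg15 and Stat2 among them, did not pass (-0.92 and 0.45 for these genes). Of 18 cytokine and chemokine genes 2 were tested, and Il12a, a subunit of interleukin 12, had 5 UMIs in 3 gated cells against a pooled level of 0.0841 CPM in all other Ptprc barcodes.

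Of 16 secretory genes 13 were tested, and most did not pass. Xbp1, a regulator of secretory capacity, was higher at 178 to 625 against 54.8 to 107 CPM (2.10, SE 0.32, adjusted p = 0.000116), as was the chaperone gene Hsp90b1 (0.78, SE 0.15). Sec61b was higher at 0.47 (adjusted p = 0.0388), a call lost in 10 of the other settings. The list as a whole had 3 tested genes higher, 1 lower (Sdf2l1, -1.22) and a median of 0.28. Without the 8 large cells, which held 1205 of its 3758 UMIs, 6 of 11 were higher and 2 lower, with Sec61a1 (1.06), Herpud1 (0.89) and Manf (0.54) added above and Pdia6 (-0.52) below. Of 14 cell cycle genes 7 were tested and 5 were lower, with a median of -1.59. Hmgb2 stood at 357, 187, 308, 80.6 and 159.6 CPM against 1521, 1556, 1258, 1389.6 and 1127.5 CPM (-2.67, SE 0.24), and Mki67, the proliferation antigen, averaged 120.2 ± 99.0 and 333 ± 143 CPM (-1.59, SE 0.29). Without the 8 large cells, which held 633 of the set's 748 cell cycle UMIs, the Mki67 difference was -3.91, and Top2a and Ube2c passed too (-3.03 and -5.04), so that 5 of the 5 genes then tested were lower. Large Xcr1 Clec9a cells stayed in, and their part in these differences was not tested.

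The comparison with mature dendritic cells used 83 barcodes with at least 2 UMIs each of Ccr7 and Fscn1, in the same 5 libraries. Of 1632 genes tested 226 were higher (13.8%) and 253 lower (15.5%) in the gated cells (edgeR), with a median over all genes of 0.04. All 6 tested plasmacytoid regulators were higher, with a median of 2.41. Among them Bcl11a had 370 UMIs in the gated cells and 2 in the Ccr7 Fscn1 cells. Bcl11a reached the test through the gated cells alone, so this count is a description. Tcf4 stood at 77.6 to 355 CPM in the Ccr7 Fscn1 cells (2.37, SE 0.31, adjusted p = 3.29e-05), Irf8 at 538 to 1267 CPM (1.42, SE 0.26) and Irf7 at 0 to 83.4 CPM (2.45, SE 0.49). The 9 surface genes tested of 15 (median 6.09) and the 13 other characteristic genes tested of 20 (median 6.19, or 5.83 with bounds) were higher. Of these, 4 and 10 had at most 3 UMIs in the Ccr7 Fscn1 cells and reached the test through the gated cells alone. Genes with 0 UMIs in the Ccr7 Fscn1 cells were led by Cox6a2, Ly6d, Ccr9 and Klk1, at least 224-fold, 214-fold, 209-fold and 187-fold higher. Ighm, the heavy chain of immunoglobulin M, was at least 81.4-fold higher with 272 UMIs, Iglc3 77.5-fold, Cd8b1 57.8-fold and Fcrla, a B-lineage Fc receptor-like gene, 47.9-fold.

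Chemokines and activation genes lay on the other side. Of 18 cytokine and chemokine genes 5 were tested and 5 were lower. Of these, 4 had at most 3 UMIs in the gated cells and reached the test through the Ccr7 Fscn1 cells alone. This count is therefore a description. Ccl5, a T cell attractant, stood at 2085 to 8867 CPM in the Ccr7 Fscn1 cells and at 22 UMIs in all in the gated cells of these libraries (-7.13, SE 0.64). Ccl22 and Ccl17, which draw regulatory T cells, had 0 UMIs against 535 and 211, at least 199-fold and 78.3-fold lower, and Il12b 0 against 189, at least 70.1-fold. Cd83, a maturation marker, was at least 72.4-fold lower, and Bcl2a1a 70.9-fold. Cd86, a ligand that costimulates T cells, had 4 UMIs against 81 (-4.39, SE 0.57). Fabp5 (-8.28, SE 0.37), Stat4 (-7.85, SE 0.50) and Cxcl16 (-7.78, SE 0.54) completed the named genes. Cd83 and Bcl2a1a, at 0 UMIs in the gated cells, and Stat4, at 1 UMI, also reached the test through the Ccr7 Fscn1 cells alone.

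Of 10 secretory genes 6 were higher (median 1.25), among them Hsp90b1 (1.82, SE 0.29) and Hspa5 (1.51, SE 0.28), both endoplasmic reticulum chaperones. Ifnar2 (3.12, SE 0.49), Unc93b1 (3.21, SE 0.43) and Pld4 (5.17, SE 0.45) were higher as well. Of 4 interferon-stimulated genes tested 3 were lower, with Isg15 at 270 to 750 CPM in the Ccr7 Fscn1 cells against 20.2 to 97.8 CPM (-2.33, SE 0.34). Ifi27l2a was higher (1.07, SE 0.31, adjusted p = 0.0158), a call lost in 4 of the other settings. Class II genes were mixed: H2-Aa and H2-Eb1 were lower (-1.26 and -2.21), H2-DMa and Ctsl higher (1.52 and 1.42), and H2-Ab1 and Cd74 did not pass (-0.17 and -0.55). Without normalisation of composition the median over all genes moved from 0.04 to 0.15, and the values above are relative to the first.

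B cells were compared because they share part of a lymphoid gene programme with plasmacytoid dendritic cells. Iglc3, an immunoglobulin gene, was also among the leading genes. The 64 barcodes with at least 3 UMIs of B cell genes, Cd79a and Ms4a1 among them, were shallow, with a median of 1434 UMIs, and 4 libraries had at least 5 of them (sedentary 1 and 2, exercise 5 and 8). In sedentary 1 the 9 such barcodes held 50238 UMIs at a median of 1538, so a few large ones held most of that sum. The sum had 1951 CPM of the fibroblast marker Col3a1, against 44.2 to 98.5 CPM in the other libraries. Cd79b, a B cell gene, stood at 378 CPM there, against 1198 to 1591 CPM. The part of these barcodes in the calls was not tested. Only 620 genes could be tested, of which 39 were higher (6.29%) and 25 lower (4.03%) in the gated cells (edgeR). Without normalisation of composition the counts were 48 and 14, and the median over all genes moved from 0.09 to 0.24. Several B-lineage genes of the plasmacytoid set did not pass. Iglc3 had a difference of 0.02 (SE 0.59, adjusted p = 0.997) and Ly6d of 0.62 (SE 0.59, adjusted p = 0.612), so at these SEs a difference of 1 log2 unit could not be seen. Ighm was at -1.66 (SE 0.53, adjusted p = 0.0994).

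Genes that passed split the 2 populations. Cox6a2 had 683 UMIs in the gated cells and 0 in the B-marker cells, at least 68.2-fold higher, and Il7r, Atp1b1, Cd8b1 and P2ry14 were at 0 there too. Ccr9 stood at 1342, 2206, 665 and 2367 CPM against 0, 0, 16.4 and 0 CPM (7.09, SE 0.70, adjusted p = 0.000224), so its only UMI in B-marker cells was in exercise 5. Lair1 (5.88, SE 0.76) and the adaptor gene Fyb (4.85, SE 0.73) were higher, with 1 and 2 UMIs in the B-marker cells. Cox6a2, Il7r, Atp1b1, Cd8b1, P2ry14, Ccr9, Lair1 and Fyb thus reached the test through the gated cells alone. Their differences are a description. Of 5 regulators tested 3 were higher, Irf8 (3.48, SE 0.36), Runx2 (3.04, SE 0.68) and Tcf4 (2.06, SE 0.47), and Bcl11a, shared by both lineages, did not pass (1.58, SE 0.75, adjusted p = 0.273). Ighd, the heavy chain of immunoglobulin D, stood at 14.9, 19.4, 16.2 and 0 CPM against 438, 575, 624 and 290.2 CPM (-5.12, SE 0.46), and Cd79b, a signalling chain of the B cell receptor, was lower at -4.61 (SE 0.59). Klf2 (-3.15), Shisa5 (-2.64), Slfn2 (-2.59), Cd37 (-2.30), H2-Eb1 (-2.21) and 4930523C07Rik (-2.13) were the other genes named as lower. The call of 4930523C07Rik was lost in 5 of the other settings and that of Cd37 in 2.

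The design asks whether treadmill running changed the tumours. In the gated cells of exercise against sedentary libraries 0 of 1283 genes passed edgeR (0% in each direction), 21 had an unadjusted p under 0.05, the smallest adjusted p was 0.999818, and DESeq2 also called 0. In 78 genes (6.08%) the 2 groups did not overlap. Of the plasmacytoid lists 7 regulators, 11 surface genes and 18 other genes were tested, and 0 passed, with medians of 0.26, 0.02 and 0.05 beside 0.02 over all genes. Tcf4 averaged 1346 ± 175 CPM in the sedentary group and 1274 ± 227 CPM in the exercise group (-0.07, SE 0.22). Irf7 averaged 182 ± 52.2 and 297 ± 219 CPM (0.50, SE 0.53), with exercise 8 at 532 and exercise 5 at 97.4 CPM, so the exercise values enclosed all sedentary ones. In 2 of these 36 genes the groups did not overlap. Zeb2 stood at 245, 309.6 and 187 CPM in the sedentary group and at 357, 343 and 399 CPM in the exercise group (0.61, SE 0.31). Ptprs, a receptor phosphatase, stood at 152, 213 and 142 CPM and at 243, 222 and 426 CPM (0.83, SE 0.35).

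The groups overlapped in the 2 interferon receptor genes and the 4 interferon-stimulated genes tested. Ifnar1 stood at 197, 232 and 80.0 CPM in the sedentary group and 187, 282 and 372 CPM in the exercise group (0.69, SE 0.43). Ifi27l2a stood at 1097, 1548 and 773 and at 592, 947 and 1409.6 CPM (-0.21, SE 0.35). Cd74 averaged 3102 ± 716 and 2746 ± 1100 CPM (-0.16, SE 0.27). In these 3 genes sedentary 3 and exercise 5, where 55.2% and 60.1% of the UMIs came from the large cells, held the lowest value of their group. Without the large cells Ifi27l2a stood at 1769, 1548 and 1566 CPM and at 1322, 947 and 1409.6 CPM (-0.41, SE 0.19, adjusted p = 0.972, edgeR). The groups then no longer overlapped, but the share of all genes without overlap was not counted in this setting.

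Genes with the smallest unadjusted p were named for that reason and are given as values. Higher in mean with exercise were Macf1, which links actin to microtubules, at 186, 194 and 142 CPM against 308, 343 and 452 CPM (1.07, SE 0.31), Cd53 (1.12, SE 0.41), Myh9 (1.27, SE 0.49), Ubtf (1.04, SE 0.40) and Fyn (0.82, SE 0.33). Lower in mean were Pgk1, a glycolytic enzyme gene, at 353, 155 and 302 CPM against 114, 141 and 53.2 CPM (-1.37, SE 0.43), Bnip3l (-1.13, SE 0.39), Pbrm1 (-1.12, SE 0.40), Dctn6 (-1.23, SE 0.50) and Tpt1 (-0.42, SE 0.17). The groups did not overlap for 9 of these 10 genes, Myh9 being the exception, and the choice by p favours such genes. With no filter on low counts 2 genes passed, Areg and Il1rl1, both named after their values were seen. Areg had 14, 0 and 34 UMIs in sedentary and 0, 0 and 0 in exercise samples, and Il1rl1 18, 0 and 34 against 2, 0 and 0. Both were thus at 0 in sedentary 2 and rested mainly on sedentary 1 and 3, which hold 6 of the 8 large cells.

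**Figure D5:**
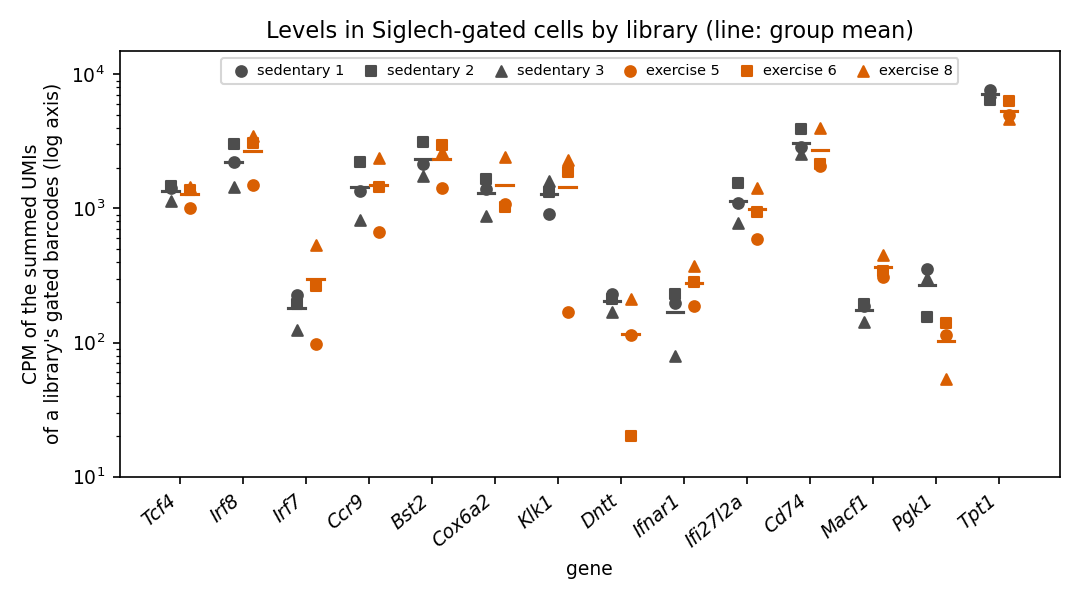
Level of 14 genes in the summed Siglech-gated cells of each library (vertical axis, CPM, logarithmic), sedentary libraries in grey and exercise libraries in orange, with a line at each group's mean. The groups overlap for every gene shown except Macf1, Pgk1 and Tpt1, which were chosen for a small unadjusted p, and Klk1 is lowest in exercise 5 at 170.4 CPM.

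Whether the gap to the Xcr1 Clec9a cells differed between the groups was tested as an interaction. Of 1943 genes 0 passed edgeR (0% in each direction), 64 had an unadjusted p under 0.05, the smallest adjusted p was 0.331, and DESeq2 called 0. That smallest value belonged to Mt1, a metallothionein gene (-2.30, SE 0.45). It stood at 4540.1 and 1058 CPM in the gated cells of sedentary 1 and 3 and at 1355, 181 and 931 CPM in those of exercise 5, 6 and 8, so that sedentary 1 was far above the rest. Without the 8 large cells the Mt1 difference was -0.73 (adjusted p = 1), and 1 gene passed, Ifi27l2a, at -1.98 (SE 0.39, adjusted p = 0.0149), against -1.54 (SE 0.48) with them. In the Xcr1 Clec9a cells Ifi27l2a stood at 85.2 and 98.6 CPM in sedentary 1 and 3. In exercise 5, 6 and 8 it stood at 210.2, 165 and 441 CPM there. Overlap of the groups was not counted over all genes in the Xcr1 Clec9a cells, so these are given as values only. In the gated cells the groups overlapped for Ifi27l2a as long as the large cells were kept.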

How the data were processed

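The authors deposited, for each of 6 libraries, a matrix of raw UMI counts. Cell Ranger 6.1.2 and the build mm10 are named per the submitters' processing notes, and version 3.1.0 is named per the file headers, so which made the counts is not settled. Barcodes under 300 genes or 500 UMIs, or above 20% of UMIs from mitochondrial genes, were dropped, and no correction was made for free RNA. Doublets called by Scrublet (scanpy 1.11.5) were counted but not removed.

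Gated cells were summed per library, with at least 5 cells needed, and the sums were tested with edgeR 4.0.16 (quasi-likelihood test, robust, filterByExpr, TMM, Benjamini-Hochberg over all genes tested, threshold 0.05, R 4.3.3), with the library as a block between populations. CPM is the summed UMIs of a gene per 1000000 of its sum. A ± is an SD over libraries. DESeq2 1.42.0 was an alternative. The edgeR script was tested on simulated data. C1q barcodes had at least 10 C1q UMIs, Cd3 barcodes at least 3 Cd3 UMIs, and Cspg4 Cdh2 barcodes at least 2 UMIs of these genes and no Ptprc. The Xcr1 Clec9a, Ccr7 Fscn1 and B-marker cells had at most 1 Siglech UMI and the same Cd3 and C1q limits as the set.

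Named genes were the 20 with the highest ratio to other Ptprc barcodes among genes seen in at least 20% of the set, in each population comparison the 8 called genes per direction with the largest fold change and a mean of at least 50 CPM in the higher population, in the exercise comparison the 5 per direction with the smallest unadjusted p, and members of the gene lists. The cells and lists were chosen with earlier results of these data known. Of 31053 gene identifiers 30934 matched the GENCODE annotation of GRCm38. Some genes of the lists are not reported here.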

Additional observations from a re-analysis of the deposited data

How the results depend on the processing

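The share difference kept its sign under every setting tried and ranged from -0.211 to -0.0293 points when each library was left out, lowest in size without sedentary 1. No paired analysis was possible because the sedentary and exercise libraries share no replicate numbers. Without the library block the population comparisons gave 288 higher and 260 lower calls (Xcr1 Clec9a), 247 and 262 (Ccr7 Fscn1) and 42 and 26 (B markers).

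With no filter on low counts, which tests more genes, the calls higher and lower were 493 and 598 (Xcr1 Clec9a), 450 and 475 (Ccr7 Fscn1) and 158 and 55 (B markers), and 2 genes were lower in exercise and 2 had a more negative gap. Without the gated cells over 10000 UMIs, a setting chosen after seeing the data, 386 genes were lower than in Xcr1 Clec9a cells, 167 lower than in Ccr7 Fscn1 cells, and 97 higher and 41 lower than in B-marker cells, and 1 gene had a more negative gap. Of the calls that could be tested again, 446 of 471, 265 of 281 and 61 of 63 were kept. B-marker calls lower were 14 without TMM and 16 with at least 3 Siglech UMIs.

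Leaving out each library gave 207 to 351 higher and 199 to 286 lower (Xcr1 Clec9a), 128 to 300 and 150 to 323 (Ccr7 Fscn1, both lowest without sedentary 1), and 24 to 48 and 5 to 32 (B markers, both lowest without exercise 8, with 10 lower without sedentary 2). The more negative gap gave 0 to 5 genes, with 5 without exercise 5 and 2 without sedentary 3, where Mt1 passed (-2.81, adjusted p = 0.0426). Mt1 also passed with no filter (-2.57, adjusted p = 8.05e-11). The causes were not tested.

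For the named genes and the listed genes that passed, 927 of 946 values over 75 genes kept their call against Xcr1 Clec9a cells, 809 of 825 over 66 against Ccr7 Fscn1 cells, 253 of 281 over 24 against B-marker cells and 113 of 113 over 10 named genes in the exercise comparison, with no direction reversed. Listed genes that did not pass were followed only without the large cells, where several passed. Calls lost in at least 1 setting were Sec61b, Unc93b1, Cd68 and Sdf2l1 (Xcr1 Clec9a), Sec61b, Ifi27l2a, Ptprs, Ifitm3, Ifnar1, Pdia6 and Ctsl (Ccr7 Fscn1), and H2-Ab1, Cd74, 4930523C07Rik, Hsp90b1, Cd37, Runx2, Tcf4, H2-Eb1, Slfn2 and P2ry14 (B markers). Sums of 37598 to 268937 UMIs per library limited the number of genes that could be tested.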

Other observations

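Several genes of trafficking and growth factor receptors were seen at low levels. S1pr4, a receptor for a blood lipid that guides lymphocytes, had 37 UMIs in 27.8% of the gated cells, against 0 in the Ccr7 Fscn1 cells and 0.503 CPM in C1q barcodes. Cxcr3, the receptor for interferon-induced chemokines, had 43 UMIs in 25.2% of the cells. Ccr7, which takes dendritic cells to lymph nodes, had 5 UMIs, and Cxcr4 had 1. Flt3, the growth factor receptor of dendritic progenitors, had 49 UMIs in 33.0% of the cells and did not pass against Xcr1 Clec9a cells (-0.64, SE 0.36, adjusted p = 0.212, edgeR). Cd4 had a UMI in 40% of the gated cells, in 6.90% of C1q barcodes (median depths 3604 and 5686.5 UMIs) and in 0 of the Xcr1 Clec9a, Ccr7 Fscn1 and B-marker cells, which allows up to 2.88%, 3.61% and 4.69% there.

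The 12 genes linked to transitional dendritic cells and precursors had 282 UMIs in all, with at least 1 in 66 of the 115 cells. Cd81 had 93 UMIs in 13 cells, which were all 8 cells over 10000 UMIs and 4.67% of the rest. Itgax, the integrin chain CD11c, had 42 UMIs in 32 cells and did not pass against Xcr1 Clec9a cells (-0.12, SE 0.34, adjusted p = 0.827, edgeR). Klf4 had 39 UMIs, Cd34 33, Axl 24 and Ltb 24, against 9 for Tmem176b, 9 for Lyz2, 6 for Tmem176a, 2 for Kit, 1 for Zbtb46 and 0 for Cx3cr1. Of the 66 UMIs of the 13 costimulatory and inhibitory ligands, seen in 37 cells, Lgals9, which encodes galectin-9, had 37 and Pvr had 11. Cd274 (PD-L1) had 6 UMIs, Cd86 had 4, Cd80 had 3, Tnfsf9 had 2, Icosl, Cd40 and Pdcd1lg2 had 1 each, and the other 4 had 0. Lag3, an inhibitory receptor, had 96 UMIs in 50.4% of the cells, against 4 UMIs or fewer in each of the dendritic and B-marker populations.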
